A study of Mus musculus with 26 samples.

Results

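The genes described here are 10 factors of maternal mRNA decay: Btg4, Cnot1, Cnot2, Cnot3, Cnot6, Cnot6l, Cnot7, Cnot8, Zfp36l2 and Exosc10. They were taken by name as 10 of the 24450 features in a table of raw read counts from mouse oocytes at the germinal vesicle (GV) stage, when growth is complete and meiosis has not yet resumed. All 10 were in the table, and all 10 passed the filter on low counts that kept 11794 genes. Polyadenylated RNA was copied into cDNA from pools of 10 oocytes, 1 pool per library.

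The labels gave 7 groups. LCD KO oocytes (7 libraries) carried Tet3 LCDf/f, a floxed allele of Tet3, and Zp3-Cre, a Cre transgene driven by an oocyte-specific promoter. HD mutant oocytes (5 libraries) carried Tet3 LCD HD Mutf/f and Zp3-Cre; LCD is taken here as the low-complexity domain of Tet3, and HD is not defined in the sources used here. Dnmt3a KO oocytes (2 libraries) carried Dnmt3af/f and Zp3-Cre, and DKO oocytes (2 libraries) carried Dnmt3af/f, Tet3 LCDf/f and Zp3-Cre. Tet3 KO oocytes (2 libraries) were labelled Tet3f/f with Zp3-Cre, and TKO oocytes (2 libraries) Tet1,2,3f/f with Zp3-Cre. WT oocytes (6 libraries) carried Tet3 LCDf/f without Cre, so every group except WT carried Zp3-Cre, and no group carried Cre without a floxed allele. The age of the females was not given in the sources used here. The labels set 3 batches. Batch 1 held LCD KO 1 to 3 with WT 1 to 3. Batch 2 held LCD KO 4 and 5 and HD mutant 1 to 3, with WT 4 as its single WT library. Batch 3 held LCD KO 6 and 7 with WT 5 and 6, together with both libraries each of Dnmt3a KO, DKO and Tet3 KO. HD mutant 4 and 5 and TKO were given no batch.

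Tet3 is a dioxygenase that oxidises 5-methylcytosine, and Dnmt3a is the methyltransferase that methylates oocyte DNA at CG sites during growth. A fully grown GV oocyte has largely stopped transcription and lives on stored mRNA, much of which is removed once meiosis resumes. That removal begins with shortening of the poly(A) tail by the CCR4-NOT complex. In mice, BTG4 brings CCR4-NOT to stored mRNAs, and oocytes without it fail to clear them. CNOT1 is the scaffold of the complex, and CNOT2 and CNOT3 form its regulatory module. CNOT6 and CNOT6L are alternative nuclease subunits of one family, and CNOT7 and CNOT8 are alternative nuclease subunits of another. ZFP36L2 binds AU-rich elements and recruits the complex, and EXOSC10 is a 3′-to-5′ ribonuclease of the nuclear RNA exosome.

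Because Tet3 and Dnmt3a act on CG sites, the window around the transcription start is shown for Btg4, which had the highest level per length, and for Cnot6l and Exosc10, which passed a test below. Each window holds 250 bases before and 50 after a RefSeq start in GRCm38.p6, a later build than the mm9 used for the counts, and CG dinucleotides stand in capitals. Windows were found for 7 of the 10 genes, and where a gene had several the first is shown. Btg4 lies at chr9:51115751-51116050 on the + strand, Cnot6l at chr5:96161941-96162240 on the − strand and Exosc10 at chr4:148558169-148558468 on the + strand.
Btg4: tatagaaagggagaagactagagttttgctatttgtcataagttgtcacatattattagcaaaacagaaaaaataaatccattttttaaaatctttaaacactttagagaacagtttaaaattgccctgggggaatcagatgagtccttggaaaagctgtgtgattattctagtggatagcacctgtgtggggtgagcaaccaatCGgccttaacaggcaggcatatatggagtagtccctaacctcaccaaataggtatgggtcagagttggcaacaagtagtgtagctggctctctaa
Cnot6l: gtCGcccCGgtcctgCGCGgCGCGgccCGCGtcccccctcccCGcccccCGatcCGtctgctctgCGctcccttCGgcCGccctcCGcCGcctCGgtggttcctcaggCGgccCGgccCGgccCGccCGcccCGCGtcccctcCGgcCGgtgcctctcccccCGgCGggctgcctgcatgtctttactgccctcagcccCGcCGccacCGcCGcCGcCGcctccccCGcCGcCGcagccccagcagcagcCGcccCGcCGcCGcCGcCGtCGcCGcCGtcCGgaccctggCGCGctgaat
Exosc10: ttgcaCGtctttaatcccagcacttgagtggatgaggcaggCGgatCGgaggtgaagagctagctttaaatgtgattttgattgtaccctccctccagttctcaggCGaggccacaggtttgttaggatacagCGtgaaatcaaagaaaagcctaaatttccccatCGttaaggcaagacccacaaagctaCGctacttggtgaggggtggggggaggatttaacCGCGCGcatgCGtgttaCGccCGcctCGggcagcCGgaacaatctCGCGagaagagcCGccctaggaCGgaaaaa
The Btg4 window held 1 CG, and 14.1% of the 32851 windows in the table held as few. The Cnot6l window held 49 CG, against a median of 7 over all windows, and 1.02% of windows held as many. The 2 further Cnot6l windows held 40 and 31 CG. The Exosc10 window held 19 CG, and 28.1% of windows held as many; its other window, at the end of the first, held 37 CG, and 5.58% of windows held as many. These are counts of letters; methylation of these windows was not analysed here.

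Total counts were 1838824 to 7833087 per library. The 2 TKO columns held the same values as the 2 Tet3 KO columns, so they were counted once, which left 24 distinct libraries. In the libraries labelled Tet3 KO, Tet3 was at 262 and 356 CPM (read counts scaled to a common library size with TMM factors), against 157 and 219 CPM in the WT libraries of batch 3, with a log2 fold change of 0.60 ± 0.33 (SE) and an adjusted p of 0.650. Dnmt3a was lower in them (-1.48 ± 0.20, adjusted p = 4.1e-05), so these libraries go against their label and are named below as labelled Tet3 KO. Tet3 fell in LCD KO (-1.78 ± 0.21, adjusted p = 6.32e-06), HD mutant (-1.86) and DKO (-1.73), and Dnmt3a fell in Dnmt3a KO (-1.53) and DKO (-1.81). These p-values, and those of single genes below, come from edgeR's quasi-likelihood test with group and batch terms, adjusted over all tested genes, with a call at an adjusted p below 0.05. All 14 oocyte markers checked were detected in all 24 libraries. Of 14 granulosa or cumulus cell, 9 theca or stroma and 7 blood or immune cell markers, Cyp19a1, Kitl, Nr5a2, Cyp11a1 and Pecam1 had counts in all 24 libraries, with medians of 6.98 CPM (Kitl) to 68.0 CPM (Pecam1), and Inha reached 292 CPM in its highest library. Ptx3, Insl3, Hbb-b1, Hba-a1 and Adgre1 had no counts in any of the 24. Batch 1 had lower TMM factors (0.734 to 0.759) than batches 2 and 3 (1.03 to 1.20), and the ribosomal RNA precursor Rn45s took 1.14 to 3.11% of counts in batch 2 and at most 0.714% elsewhere.

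Per kilobase of exon, Btg4 stood far above the other 9 genes in every group. In units of CPM per kilobase of merged GENCODE M21 exons, its level averaged 720 ± 327 in LCD KO (SD, n = 7) and 1032 ± 543 in WT (SD, n = 6), and it exceeded 99.42% of tested genes in LCD KO and 99.55% in WT. Cnot7 followed at 152 ± 81.5 CPM per kilobase in LCD KO and 146 ± 54.9 in WT, and Cnot8 at 108 ± 18.4 in LCD KO and 115 ± 21.97 in WT. The means of Cnot7 and Cnot8 lay within the spread of Cnot7 in both groups. Exosc10 (23.5 CPM per kilobase in LCD KO, 29.2 in WT), Cnot3 (23.2 in LCD KO, 22.3 in WT), Cnot2 (12.9 in LCD KO, 15.6 in WT) and Cnot6l (11.5 in LCD KO, 17.4 in WT) lay close together, with standard deviations that overlapped. Cnot1 was at 2.81 CPM per kilobase in LCD KO and 3.43 in WT, and Cnot6 at 1.93 in LCD KO and 2.33 in WT. Zfp36l2 had the lowest mean level over all libraries, 1.40 ± 1.07 CPM per kilobase in LCD KO and 1.09 ± 1.04 in WT. That order did not hold in each batch: in batch 2 Zfp36l2 (2.85 CPM per kilobase in LCD KO, 3.09 in WT 4) lay above Cnot6 (1.86 in LCD KO, 1.81 in WT 4). In the same batch Cnot7 (56.5 CPM per kilobase in LCD KO, 48.9 in WT 4) lay below Cnot8 (104 in LCD KO, 132 in WT 4). Of the alternative nucleases of the CNOT6 family, Cnot6l had the higher level of polyadenylated RNA per length of merged exon. The lengths of poly(A) tails and of the transcripts in use were not examined, and these rankings hold for the units given.

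Levels of several of the genes differed more between batches than between groups. Within WT, Btg4 was at 3744 to 4005 CPM in batch 1, at 936 CPM in the single library of batch 2 and at 1575 and 1671 CPM in batch 3. The same order held for Cnot7, at 988 to 1169 CPM in batch 1, 285 CPM in batch 2 and 781 and 792 CPM in batch 3. Cnot3 was at 197 to 221 CPM in WT of batch 1 and at 185 CPM in batch 2, but at 43.6 and 90.1 CPM in batch 3. Cnot6l went the other way, with 268 and 271 CPM in WT of batch 3 and 113 to 174 CPM in the other 4 WT libraries. Group means that pool the batches therefore carry these differences, and fold changes are given from the fit with a batch term. Nothing in the labels says what set the batches apart.

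**Figure D1:**
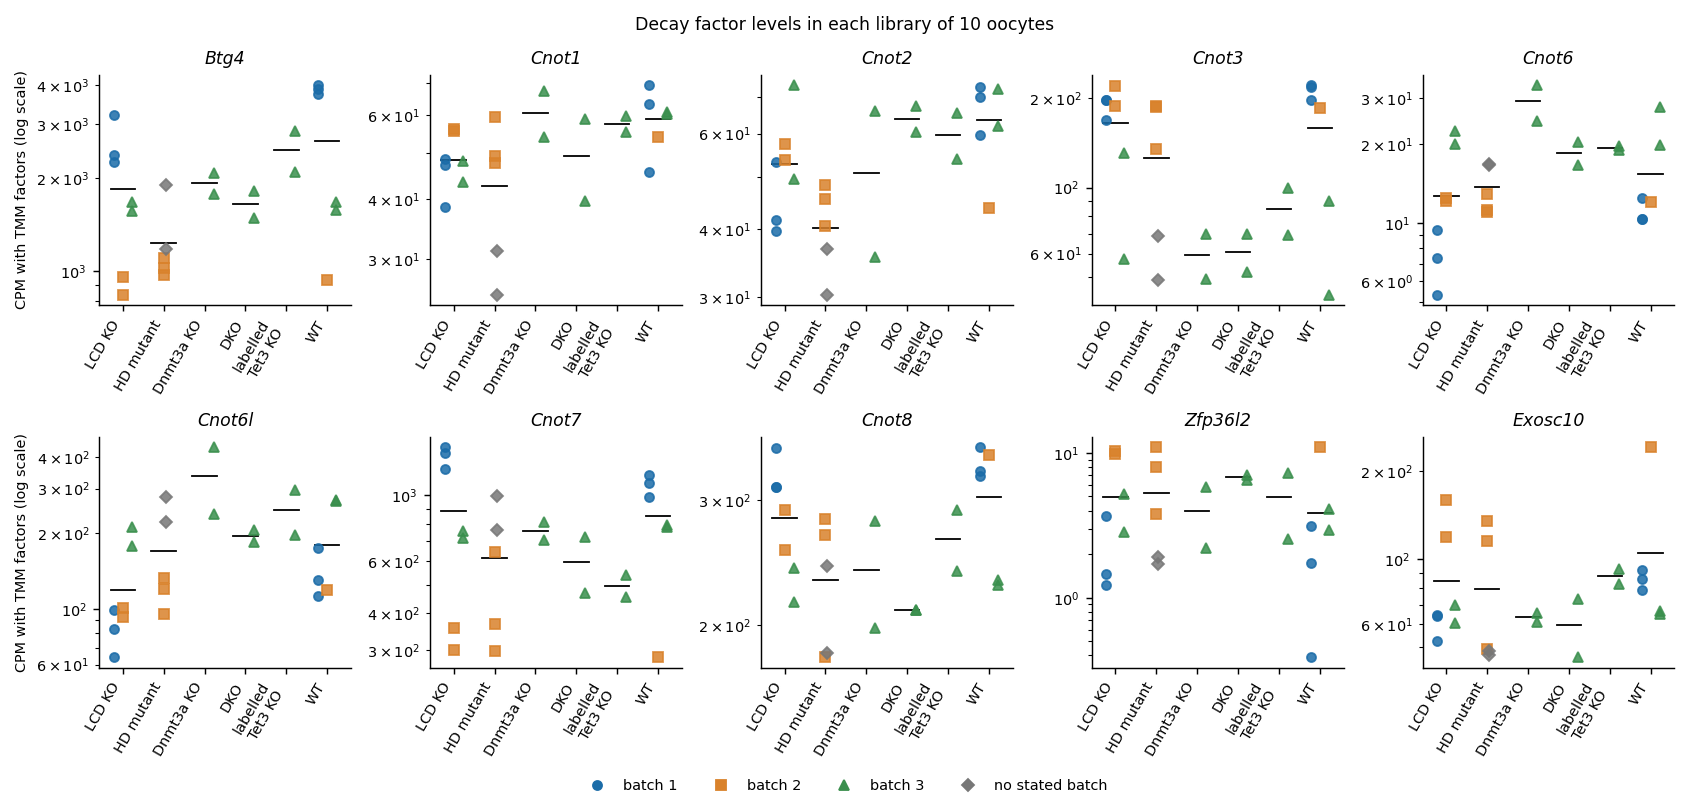
CPM with TMM factors (log scale) of the 10 genes in each of 24 distinct libraries, by group, with symbols for the stated batches and a bar at the mean of all libraries of a group. Libraries of a batch sit together for Btg4, Cnot7 and Cnot3, and the LCD KO points of Cnot6l lie below the WT points of the same symbol.

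The comparison of LCD KO with WT asks what removal of the floxed part of Tet3 did in the growing oocyte. These groups also differ in Zp3-Cre, and effects of Cre and of that removal cannot be told apart. Of the 10 genes, 1 fell and none rose. Cnot6l, the nuclease subunit needed in mice for normal clearance of maternal mRNA, fell by 0.57 ± 0.15 on the log2 scale, to 0.675 of its WT level (adjusted p = 0.00979). Each library is a pool, so a lower level in each oocyte and fewer oocytes with the transcript cannot be told apart. Over all tested genes 18.3% passed, 8.89% higher and 9.44% lower, so 1 lower gene of 10 is near the background. The median log2 fold change of the 10 was -0.26, with 7 below 0, against a median of -0.02 over all tested genes, of which 52.1% were below 0.

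In batch 1 Cnot6l was at 83.3, 64.3 and 99.3 CPM in LCD KO 1 to 3, against 174, 130 and 113 CPM in WT 1 to 3. In batch 2 it was at 92.6 and 101 CPM in LCD KO 4 and 5, against 119 CPM in WT 4. In batch 3 it was at 177 and 211.6 CPM in LCD KO 6 and 7, against 271 and 268 CPM in WT 5 and 6. Each LCD KO library was below each WT library of its own batch. Cnot6l was the only one of the 10 with no overlap in the same direction in all 3 batches, and 5.61% of tested genes were lower in LCD KO in this way. Its call was lost without a batch term (-0.60, adjusted p = 0.261, with 4.61% of all genes called), and without batch 1 (-0.41, adjusted p = 0.307). It held when any single library was left out (adjusted p 0.00467 to 0.0303).

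The other 9 genes did not pass. Btg4 was at 2374, 2254 and 3205 CPM in LCD KO of batch 1 against 3895, 4005 and 3744 CPM in WT, at 955 and 839 CPM in LCD KO of batch 2 against 936 CPM in WT, and at 1682 and 1570 CPM in LCD KO of batch 3 against 1671 and 1575 CPM in WT. The groups were apart in batch 1 and overlapped in batches 2 and 3, and the batch-adjusted change was -0.28 ± 0.12 (adjusted p = 0.104). Cnot1 was at 38.5 to 56.1 CPM in LCD KO with a median of 48.1, against 45.6 to 69.3 CPM in WT with a median of 60.6 (-0.31 ± 0.13, adjusted p = 0.110). In Cnot1 the LCD KO libraries lay below WT in batch 3 and above WT 4 in batch 2. The share of all tested genes apart within a single batch was not counted, here or for Exosc10 below.

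Exosc10 was at 64.1, 52.8 and 64.3 CPM in LCD KO of batch 1, against 91.7, 85.6 and 78.7 CPM in WT. It was at 119 and 160 CPM in LCD KO of batch 2 against 242 CPM in WT 4, and at 60.5 and 70.0 CPM in LCD KO of batch 3 against 65.3 and 66.8 CPM in WT. LCD KO was lower without overlap in batches 1 and 2 and overlapped WT in batch 3, with a batch-adjusted change of -0.42 ± 0.17 (adjusted p = 0.0935). The gene was called on leaving out HD mutant 1 from the fit (-0.42, adjusted p = 0.0191), a library of neither group. It was also called with only LCD KO and WT libraries fitted (-0.42, adjusted p = 0.0196) and without the filter on low counts (-0.42, adjusted p = 0.0344). It was not called by DESeq2 (adjusted p = 0.101). In all, 3 of 14 alternatives and 1 of 22 fits with single libraries left out called it.

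Cnot2 (-0.24 ± 0.16), Cnot6 (-0.27 ± 0.17), Cnot8 (-0.10 ± 0.12), Cnot3 (0.10 ± 0.18) and Cnot7 (0.17 ± 0.14) had adjusted p-values of 0.287 to 0.755. Zfp36l2 had 3 to 93 counts per library in LCD KO and 1 to 61 in WT, and its change of 0.10 ± 0.36 had a 95% interval of -0.64 to 0.84. These libraries are compatible with a change anywhere within that interval, or with none.

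Of the 14 oocyte markers 7 also fell in LCD KO (Zp1, Zp2, Figla, Dazl, Zar1, Oosp1 and Mos) and none rose. Summed over the list they reached 54039 to 55979 CPM in LCD KO of batch 1 against 64968 to 67824 CPM in WT, 29867 to 31354 CPM in LCD KO of batch 2 against 39290 CPM in WT 4, and 22194 to 24146 CPM in LCD KO of batch 3 against 25094 to 26752 CPM in WT. Of 14 granulosa or cumulus cell markers 5 were tested and none passed; their sum was 76.8 to 413 CPM in LCD KO, highest in LCD KO 2, and 63.4 to 128 CPM in WT. Of 9 theca or stroma markers 2 were tested and 1, Dcn, rose, with list sums of 9.89 to 29.3 CPM in LCD KO and 9.84 to 17.4 CPM in WT. Cnot6l was also called without LCD KO 2 (-0.50, adjusted p = 0.0281). The part of the oocyte and other cell markers in its fall was not tested.

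**Figure D2:**
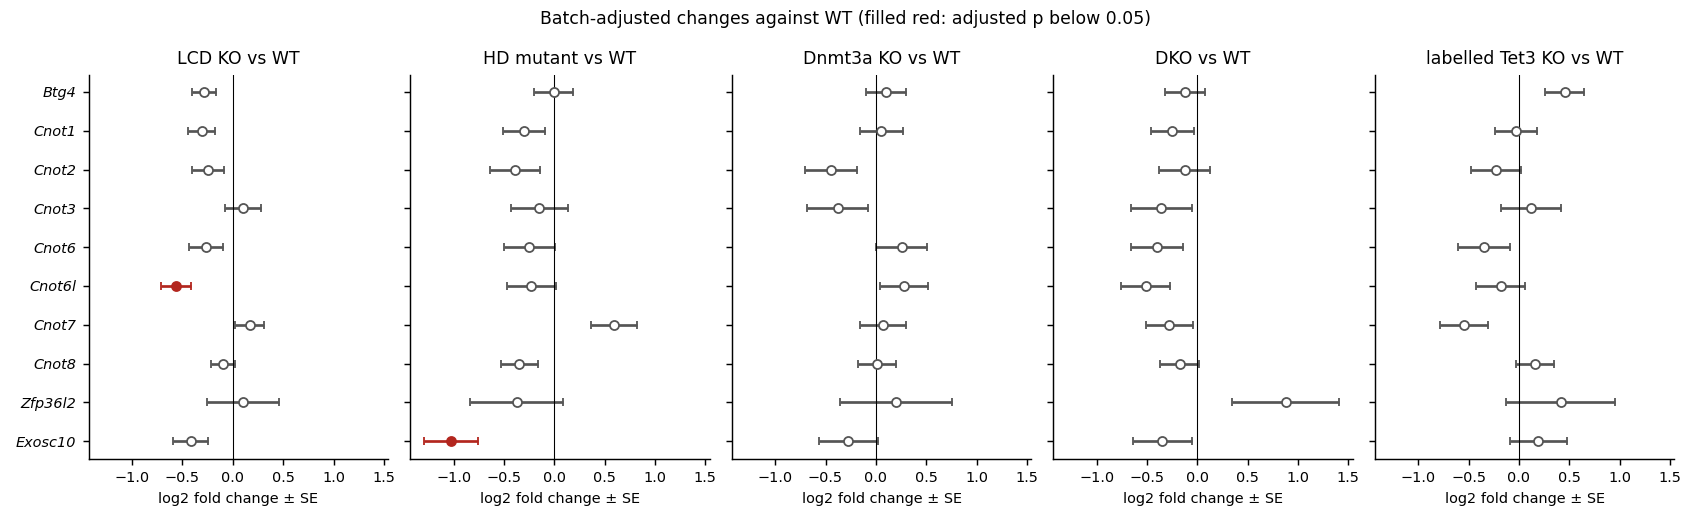
Batch-adjusted log2 fold change ± SE of each gene in 5 comparisons with WT, which share their WT libraries; filled red points have an adjusted p below 0.05. Cnot6l in LCD KO (-0.57) and Exosc10 in HD mutant (-1.03) are the 2 called points.

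Within single batches, the change in LCD KO was not the same for each gene. A test of the difference between batches passed for none of the 10 (edgeR, 3 at an unadjusted p below 0.05, and none by DESeq2), and 0.836% of 10045 genes passed it. Cnot6l was below 0 in each batch, at -0.76 ± 0.17 in batch 1, -0.32 ± 0.25 in batch 2 and -0.46 ± 0.20 in batch 3 (adjusted p of the difference 0.561). Btg4 was at -0.58 ± 0.14 in batch 1, -0.08 ± 0.20 in batch 2 and 0.01 ± 0.17 in batch 3 (unadjusted p = 0.0276, adjusted p = 0.208). Cnot2 was at -0.60 ± 0.18 in batch 1, 0.33 ± 0.26 in batch 2 and -0.12 ± 0.21 in batch 3 (adjusted p = 0.203). Exosc10 was at -0.50 ± 0.16, -0.81 ± 0.21 and -0.01 ± 0.19 in batches 1, 2 and 3 (adjusted p = 0.210).

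Fitted alone, batch 1 called 5 of the 10 (Btg4, Cnot2, Cnot6l and Exosc10 lower, Cnot7 higher) where it called 30.3% of all genes tested. Batch 2 alone called none of the 10 and 0.0946% of all genes, and batch 3 alone none of the 10 and 0.789% of all genes. Batch 1 had 3 libraries a group, batch 2 had 1 WT library, and batch 3 had 2 libraries a group. Without batch 3 Btg4 was also called (-0.43, adjusted p = 0.0474), and without batch 1 its change was -0.03 (adjusted p = 0.961). Cnot2 and Cnot7 were called in neither of these fits.

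**Figure D3:**
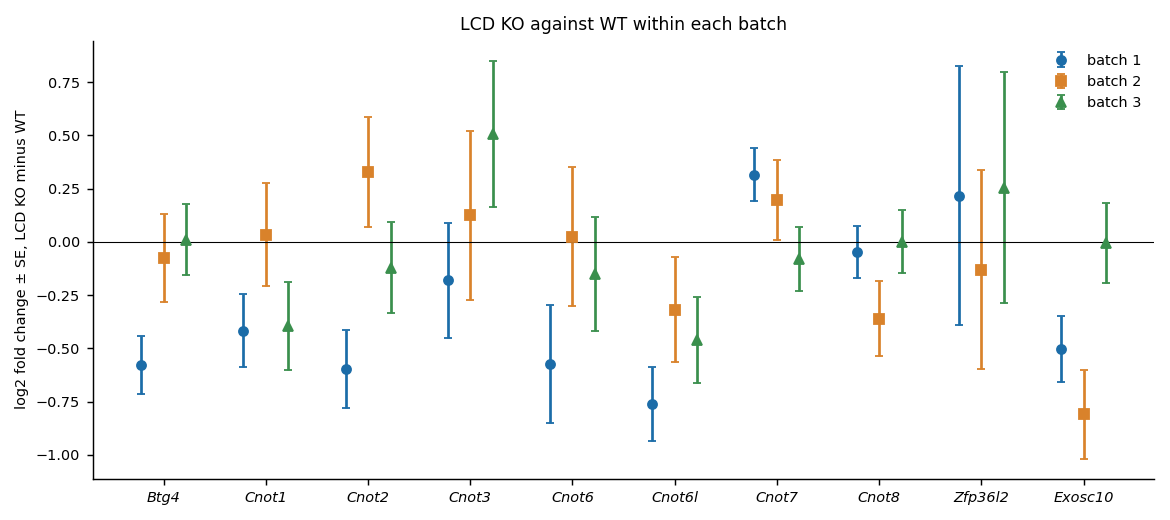
Log2 fold change ± SE of LCD KO against WT in each batch, from a fit with a group by batch term. Cnot6l lies below 0 in each batch, whereas Btg4 is at -0.58 in batch 1 and within 1 SE of 0 in batches 2 and 3.

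Ratios of alternative nuclease subunits within a library do not depend on its normalization. The count ratio of Cnot6l to Cnot6 was 7.44 to 13.5 in LCD KO and 9.03 to 16.8 in WT, and its log2 value differed by -0.24 (exact permutation test within batches, two-sided, p = 0.203, adjusted over the 2 ratios 0.203). The ratio of Cnot7 to Cnot8 was 1.03 to 4.63 in LCD KO and 0.819 to 3.43 in WT, a log2 difference of 0.26 (exact permutation p = 0.0806, adjusted p = 0.161). Both groups overlapped in both ratios. The Cnot7 to Cnot8 ratio was 3.44 to 4.63 in LCD KO of batch 1, above 3.04 to 3.33 in WT, whereas in batch 3 it was 3.15 and 3.33 in LCD KO, below 3.42 and 3.43 in WT. In the libraries labelled Tet3 KO it was 1.85 and 1.89, below the 2.24 to 3.56 of the other libraries of batch 3. The 2 genes of each pair shared no stretch of 50 bases in their GENCODE M21 transcripts, so reads cannot have been split between them on such stretches. Copies elsewhere shared 13.5% of the stretches of Cnot3, 7.82% of Cnot8 and 4.77% of Cnot1, whose counts are less certain for that reason. Btg4, Cnot6l and Exosc10 shared none.

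**Figure D4:**
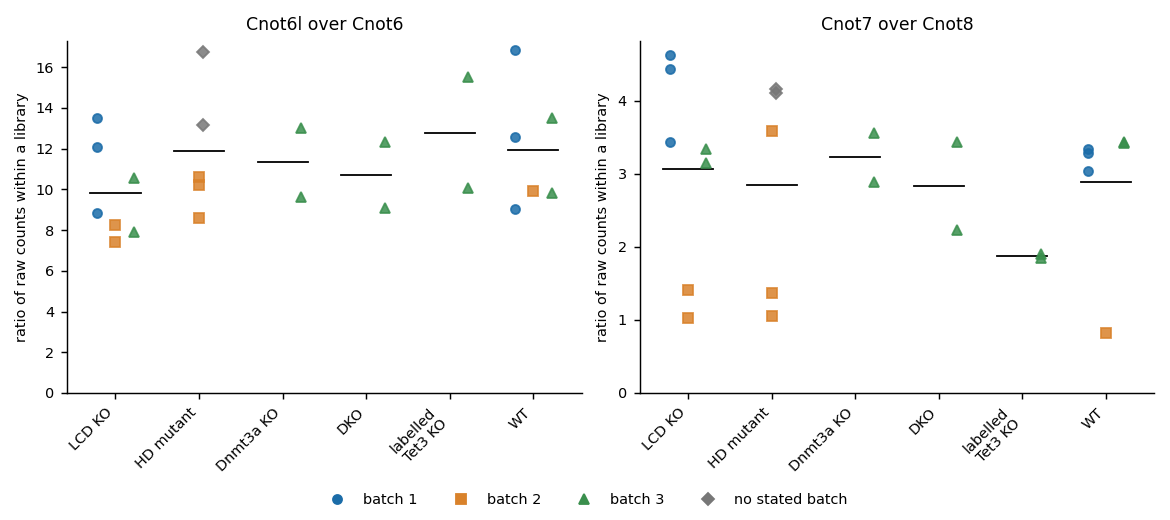
Ratio of raw counts of Cnot6l to Cnot6 (left) and Cnot7 to Cnot8 (right) in each library, by group and batch, with a bar at the group mean. Batch 2 libraries have low Cnot7 to Cnot8 ratios except HD mutant 1 at 3.58, and the libraries labelled Tet3 KO lie at 1.85 and 1.89.

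In HD mutant against WT 1 gene, Exosc10, fell (-1.03 ± 0.27, adjusted p = 0.0188), and none rose. In all 7.83% of tested genes passed, 4.08% higher and 3.75% lower. Exosc10, the exosome nuclease, was at 49.4, 116 and 135 CPM in HD mutant 1 to 3, against 242 CPM in WT 4, the only WT library of that batch. All 3 were below it, and HD mutant 1 was the lowest. WT 4 was also the highest of the 6 WT libraries, the next being 91.7 CPM. The call was lost without WT 4 (-0.78, adjusted p = 0.169), without HD mutant 1 (-0.71, adjusted p = 0.0705) and without a batch term (-0.07). HD mutant 4 and 5, with no stated batch, were at 48.6 and 47.1 CPM; with them in a fit without a batch term the change was -0.40 (adjusted p = 0.618).

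Cnot7, a nuclease subunit, was at 646, 368 and 298 CPM in HD mutant 1 to 3, against 285 CPM in WT 4, a change of 0.59 ± 0.23 (adjusted p = 0.110). HD mutant 1, the lowest library of batch 2 for Exosc10, was the highest of that batch for Cnot7. It was called without HD mutant 3 (0.80, adjusted p = 0.0273), and its change was 0.20 without HD mutant 1. Rn45s took 1.14% of counts in HD mutant 1, 2.05 and 2.69% in HD mutant 2 and 3 and 3.11% in WT 4, and its part in these values was not tested. Btg4 was at 1107, 1024 and 972 CPM in HD mutant 1 to 3, against 936 CPM in WT 4, with a change of -0.01 ± 0.20, and at 1895 and 1179 CPM in HD mutant 4 and 5. Cnot6l was at 132, 119 and 95.0 CPM in HD mutant 1 to 3, against 119 CPM in WT 4 (-0.23 ± 0.24, adjusted p = 0.601), on both sides of WT. The other 6 genes had changes of -0.15 to -0.39. The oocyte markers Zp2 and Figla fell in this comparison.

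Set against LCD KO, none of the 10 passed in HD mutant (edgeR, 1 at an unadjusted p below 0.05, none by DESeq2), and 2.08% of all genes did. The smallest adjusted p was 0.307, for Exosc10 (-0.61 ± 0.26). In batch 2 Exosc10 was at 49.4, 116 and 135 CPM in HD mutant, against 119 and 160 CPM in LCD KO, with overlap. Cnot6l differed by 0.34 with a 95% interval of -0.11 to 0.79, and Cnot7 by 0.42 (adjusted p = 0.436).

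In the batch that held Dnmt3a KO, DKO and the libraries labelled Tet3 KO, each group had 2 libraries, and the fit borrowed its spread from all groups. In Dnmt3a KO against WT none of the 10 passed, with none at an unadjusted p below 0.05 by edgeR and none by DESeq2, and 0.755% of all genes passed. The largest changes were in Cnot2 (-0.45 ± 0.26, adjusted p = 0.478) and Cnot3 (-0.38 ± 0.31). Cnot2 was at 35.6 and 66.0 CPM in Dnmt3a KO, against 72.5 and 62.0 CPM in WT of batch 3. Cnot6l was at 237 and 438 CPM in Dnmt3a KO, against 271 and 268 CPM in WT (0.28 ± 0.24, adjusted p = 0.664). The 2 Dnmt3a KO libraries fell on either side of WT. Btg4 was at 2074 and 1782 CPM in Dnmt3a KO, against 1671 and 1575 CPM in WT, a change of 0.10 ± 0.20.

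In DKO against WT none of the 10 passed (edgeR, 1 at an unadjusted p below 0.05, none by DESeq2), against 3.79% of all genes. Changes were below 0 in 9 of the 10 genes, with a median of -0.26, and in 51.3% of all tested genes, with a median of -0.01. Cnot6l was at 185 and 205 CPM in DKO, below 271 and 268 CPM in WT of batch 3 (-0.51 ± 0.25, adjusted p = 0.270). That is close to its level of 177 and 211.6 CPM in LCD KO of the same batch, and the difference of DKO from LCD KO was 0.05 with a 95% interval of -0.44 to 0.55. Zfp36l2 was at 6.53 and 7.005 CPM in DKO, against 4.08 and 2.94 CPM in WT, from 26 and 21 counts in DKO and 13 and 11 in WT (0.88 ± 0.53, adjusted p = 0.413). In DKO against LCD KO none passed (edgeR, none at an unadjusted p below 0.05, none by DESeq2) and 0.314% of all genes did, with a smallest adjusted p of 0.702 for Cnot7 (-0.45 ± 0.24).

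DKO against Dnmt3a KO gives the effect of the Tet3 allele where Dnmt3a is deleted in both groups. None of the 10 passed (edgeR, 2 at an unadjusted p below 0.05, none by DESeq2), and 1.99% of all genes did. Cnot6l had the largest change, at 185 and 205 CPM in DKO and 237 and 438 CPM in Dnmt3a KO (-0.79 ± 0.26, adjusted p = 0.122). For Cnot6l both DKO libraries were below both Dnmt3a KO libraries, an order whose share over all tested genes was not counted. Leaving out Dnmt3a KO 1 gave -1.17 (adjusted p = 0.0393) and leaving out Dnmt3a KO 2 gave -0.28 (adjusted p = 0.728), so the size of this change rests on single libraries. Cnot6, its alternative subunit, was also lower in both DKO libraries, at 20.4 and 16.7 CPM against 24.6 and 33.6 CPM in Dnmt3a KO (-0.66 ± 0.28, adjusted p = 0.242). The difference between this effect and that of LCD KO against WT was tested itself: none of the 10 passed (edgeR, none at an unadjusted p below 0.05, none by DESeq2), and 0.0678% of all genes did. For Cnot6l it was -0.23 with a 95% interval of -0.85 to 0.40. LCD KO and WT differ in Zp3-Cre, whereas DKO and Dnmt3a KO both carry it. An effect of Cre and a dependence on Dnmt3a therefore cannot be told apart in this difference.

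In the libraries labelled Tet3 KO against WT none of the 10 passed (edgeR, 2 at an unadjusted p below 0.05, none by DESeq2), and 1.37% of all genes did. Btg4 was at 2848 and 2089 CPM in the libraries labelled Tet3 KO, above 1671 and 1575 CPM in WT of batch 3 (0.45 ± 0.20, adjusted p = 0.426). Cnot7 was at 538 and 452 CPM in the libraries labelled Tet3 KO, below 781 and 792 CPM in WT (-0.55 ± 0.24, adjusted p = 0.426). Neither gene's libraries overlapped with those of WT in that batch, and the same held for Exosc10, Cnot8, Cnot1 and Cnot6. With 2 libraries a group, exchange of labels alone separates the groups in 0.333 of the 6 arrangements. The share of all tested genes that separate in this way was not counted, so this is not read as a result about the 10 genes. Exosc10 was at 92.7 and 82.5 CPM in them, against 65.3 and 66.8 CPM in WT (0.19 ± 0.28). Cnot6l was at 197 and 295 CPM in the libraries labelled Tet3 KO, on both sides of WT.

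Batch 3 allows the levels of 5 groups to be ordered without a batch step. For Cnot6l the order of mean levels was Dnmt3a KO (338 ± 142 CPM, SD, n = 2), WT (269 ± 2.70), labelled Tet3 KO (246 ± 69.5), DKO (195 ± 14.5) and LCD KO (194 ± 24.4). Both DKO and LCD KO lay below WT without overlap, and the Dnmt3a KO and labelled Tet3 KO libraries lay on both sides of WT. In LCD KO of this batch Cnot1 and Cnot7 also lay below WT without overlap. The share of all tested genes without overlap was not counted within single batches. For 2 groups of 2 libraries, exchange of labels alone separates them, in either direction, in 0.333 of the 6 arrangements. The labelled Tet3 KO range of 197 to 295 CPM overlapped the 185 and 205 CPM of DKO, and DKO overlapped the 177 and 211.6 CPM of LCD KO. For Btg4 the order was labelled Tet3 KO (2468 ± 537 CPM), Dnmt3a KO (1928 ± 207), DKO (1655 ± 232), LCD KO (1626 ± 79.2) and WT (1623 ± 67.5), the last 3 within their spread.

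Other genes of mRNA decay were counted from a list of 81 names, of which 77 were tested. In LCD KO against WT 3 rose, 8 fell and 66 did not pass, with a median of -0.06; the 11 called are 14.3% of the list, against 18.3% of all tested genes. Among readers that recognise mRNA sequence or methylation, Celf1 (-0.84 ± 0.13, adjusted p = 7.54e-05) and Ythdf3 (-0.39 ± 0.13) fell. Celf1 averaged 59.4 ± 23.9 CPM in LCD KO (SD, n = 7) and 96.7 ± 34.7 CPM in WT (SD, n = 6). The list of other deadenylases also held partners and relatives of such enzymes, and 2 of its 5 genes fell. These were Pan3 (-0.59 ± 0.18), the adaptor of the PAN2 nuclease, and Noct (-0.58 ± 0.16), a CCR4-related protein. Of the other CCR4-NOT subunits Tnks1bp1 fell (-0.65 ± 0.23) and Cnot4, a ubiquitin ligase, rose (0.37 ± 0.11), of 5 tested. Dcp2, the decapping enzyme (-0.44 ± 0.14, 1 of 16 in its group), and Smg6, an endonuclease of nonsense-mediated decay (-0.53 ± 0.17, 1 of 8), fell. Btg1, a relative of Btg4 (0.89 ± 0.25, 1 of 4), and Exosc2, an exosome core subunit (0.61 ± 0.16, 1 of 20), rose. None of 2 genes of uridylation and 5 poly(A)-binding proteins passed.

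The number of these genes called was 6 to 15 when single libraries were left out; it was 6 without LCD KO 1 and 7 without LCD KO 2, LCD KO 6, WT 1, WT 2 or WT 6, against 11 in all. Without batch 1 it was 1. In HD mutant against WT 5 of the 77 passed (6.49%, against 7.83% of all tested genes): Dcps, the scavenger decapping enzyme (1.24 ± 0.25), and Btg2 (0.97 ± 0.25) rose, and Celf1 (-0.87 ± 0.20), Noct (-0.87 ± 0.25) and Upf2, of nonsense-mediated decay (-0.72 ± 0.21), fell. In HD mutant against LCD KO Dcps was higher (0.97 ± 0.23, adjusted p = 0.0203). In DKO against WT 2 of the 77 passed (2.6%, against 3.79% of all tested genes): Exosc2 rose (0.86 ± 0.24, adjusted p = 0.0443), and Pabpn1l, a poly(A)-binding protein of oocytes, fell (-1.005 ± 0.29, adjusted p = 0.0491). In Dnmt3a KO against WT 0 of the 77 passed edgeR, with 13 at an unadjusted p below 0.05 and 1 called by DESeq2, and in the libraries labelled Tet3 KO against WT 0 passed, with 3 at an unadjusted p below 0.05 and 0 by DESeq2. In DKO against Dnmt3a KO and DKO against LCD KO 0 passed, with 4 and 2 at an unadjusted p below 0.05 and 0 by DESeq2. The comparisons with WT share WT libraries, so a gene that recurs in several is not seen independently.

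**Figure D5:**
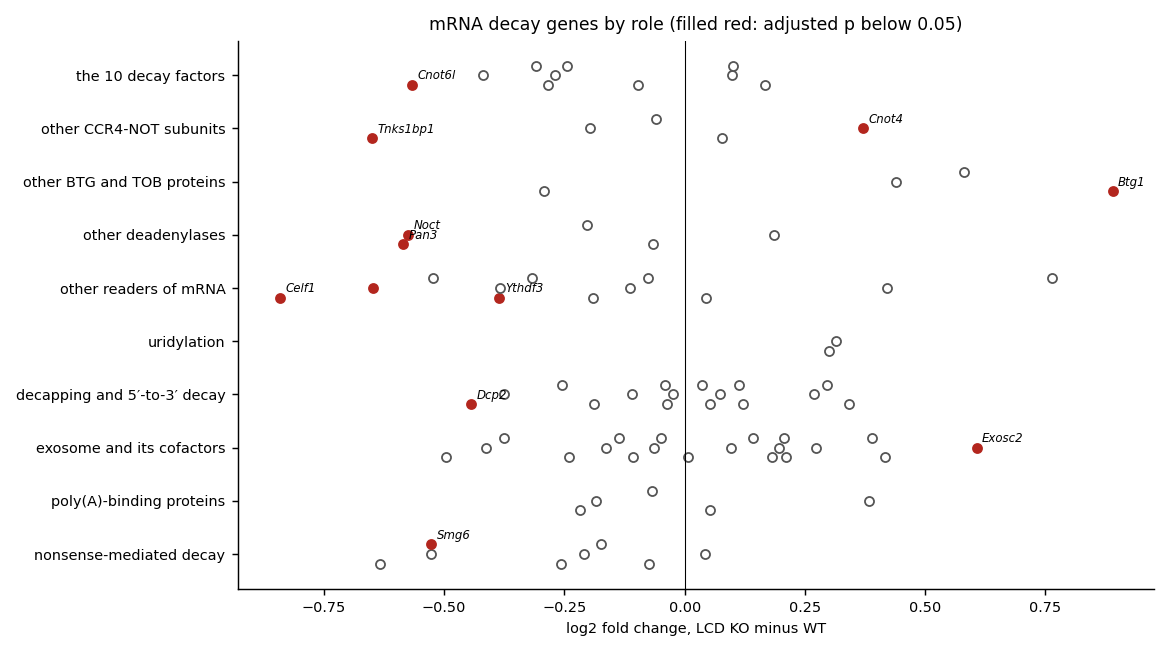
Log2 fold change of LCD KO against WT for the 10 genes (top) and 77 other decay genes by role, 1 point per gene, with vertical offsets only to separate points; filled red points have an adjusted p below 0.05, and those named in the text carry their symbol. Called genes lie on both sides of 0, 3 higher and 8 lower among the 77.

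The genes most like Btg4, Cnot6l and Zfp36l2 were sought by the Pearson r of log2(CPM + 1), centred on batch means, over the 22 libraries with a stated batch. Nearest to Cnot6l were Selenot (r = 0.91), Suz12, a subunit of a histone methyltransferase complex (0.90), and Gpbp1 (0.89). Suz12 fell in LCD KO (-0.61 ± 0.14, adjusted p = 0.00297), and Selenot (-0.24 ± 0.11) and Gpbp1 (-0.32 ± 0.12) did not pass. Nearest to Btg4 were Ptk2 (0.85), Trim13 (0.84) and Pias1 (0.81). Zfp36l2 was nearest to Trrap (0.76), Eif2s3x (0.76) and Usp2 (0.72), from its few counts. These values describe libraries that share groups and depth, and the names were picked as the highest among tested genes that averaged 10 CPM or more.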

How the data were processed

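The authors deposited raw read counts per gene symbol. Per the submitters' processing notes, reads were handled with Trim Galore 0.5.0, HISAT2 2.1.0, mm9 and featureCounts 1.6.4; how strand and multiply aligned reads were handled, and which annotation was used, are not given in the sources used here. From the counts, 92 ERCC rows were left out (1 count in all), and edgeR 4.0.16 in R 4.3.3 (TMM, filterByExpr by group, robust quasi-likelihood F test, group and batch terms, Benjamini-Hochberg over 11794 genes) was fitted to the 22 libraries with a stated batch, with 14 residual degrees of freedom. HD mutant 4 and 5, with no stated batch, entered levels and 1 alternative only. Levels are CPM with TMM factors, and intervals are 95% from the standard error and the degrees of freedom of the F test. Alternatives included DESeq2 1.42.0, other factors, filters, batches and left-out libraries; those without a batch or without the libraries labelled Tet3 KO were chosen after seeing the data. The edgeR fit was tried on simulated counts for LCD KO and for Dnmt3a KO against WT. The permutation test and the test of the difference between batches were not tried in that way.

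The 10 genes and the decay and marker lists were chosen with earlier results of these data known. All 10 were named; of the 81 others, up to 12 called in LCD KO against WT and 4 in any other comparison, and 3 like genes for each of Btg4, Cnot6l and Zfp36l2. The values of 1 called gene of that list are not reported here. Pools were called biological replicates, but separate animals were not stated, so p-values measure the spread between these pools. Sequences are RefSeq windows of GRCm38.p6; 98.7% of tested genes had an exon length.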

Additional observations from a re-analysis of the deposited data

Results flagged for a closer look

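Of 36 sets of 4 to 10 libraries (the genes' levels and the 2 ratios, by group), 4 had 1 library far from the others by Dixon's test; chance flags about 1 in 20. Btg4 was highest in HD mutant 4, at 1895 CPM, against 1179 CPM in the next library. Exosc10 in WT 4 was at 242 CPM, with the next WT library at 91.7 CPM, and Zfp36l2 in WT 4 was at 10.9 CPM, with the next at 4.08 CPM. The Cnot7 to Cnot8 count ratio was lowest in WT 4, at 0.819, against 3.04 in the next WT library. WT 4 is the only WT library of batch 2, and LCD KO 4 and 5 of that batch were also high for Exosc10 (119 and 160 CPM) and Zfp36l2 (10.3 and 9.81 CPM) and low for the ratio (1.40 and 1.03). HD mutant 4 has no stated batch.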

How the results depend on the processing

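In LCD KO against WT the count of the 10 genes called was 1; it was 2 with no filter, 2 with only these groups, 2 without batch 3, 0 with no batch term, 0 without batch 1, and 5, 0 and 0 in batches 1, 2 and 3 alone. It was 1 to 2 with single libraries left out (2 without HD mutant 1). In HD mutant against WT it was 1, and 0 with no batch term, with HD mutant 4 and 5 added, with only these groups, in batch 2 alone and without batch 1; with single libraries left out it was 0 to 2 (0 without WT 4 or HD mutant 1, 2 without HD mutant 3). In DKO against Dnmt3a KO it was 0, and 1 with no filter, and 0 to 1 with single libraries left out (1 without Dnmt3a KO 1). Of the 77 other decay genes 11 were called in LCD KO against WT, with 0 under no batch term, 24, 0 and 0 in batches 1, 2 and 3 alone, 1 without batch 1 and 6 to 15 with single libraries left out. The log2 difference of the Cnot7 to Cnot8 ratio was -0.0794 in batch 3 alone, against 0.26 over all batches. The cause of these shifts was not tested, and single batches also hold fewer libraries. DESeq2, RLE factors and library size alone gave the same counts for the 10 genes. Zfp36l2 had 1 to 93 counts per library; the part of depth in its spread was not tested.

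Replicate numbers as given do not pair WT with LCD KO libraries across all batches: number 5 joins batch 3 (WT) with batch 2 (LCD KO) (r = -0.40). For equal numbers within batch 1, r was -0.07 to -0.02. Number 6 joins the second WT library of batch 3 with the first LCD KO library (r = -0.37). With 2 libraries a group, deviations from the group mean mirror each other, so joining by order gives an r of the same size above 0. Whether batch 3 was paired by order was not tested further. Neither the fits nor the permutation test used such a pairing, and their p-values do not take it into account. In every group of that batch the second library was higher for Cnot3 (43.6 and 90.1 CPM in WT, 57.7 and 131 CPM in LCD KO). For Btg4 it was lower in every group (1671 and 1575 CPM in WT), and for Exosc10 the order differed between groups. When replicate numbers served as a block in place of batch, the 10 genes had 3 calls in HD mutant against WT (29.5% of all genes), 3 in HD mutant against LCD KO (25.8%), 4 in Dnmt3a KO against WT (12.2%), 3 in DKO against WT (16.6%), 4 in DKO against LCD KO (13.5%), 1 in labelled Tet3 KO against WT (9.86%) and 1 in LCD KO against WT (6.94%), and the other decay genes 2. Of values called with or without that block, signs turned for Cnot7 (-1.52), Zfp36l2 (2.04) and Exosc10 (0.33) in HD mutant against WT, Btg4 (-1.40), Cnot7 (-1.51) and Zfp36l2 (1.70) in HD mutant against LCD KO, Btg4 (-0.92) in Dnmt3a KO against WT, and Cnot6 (1.26) in DKO against LCD KO. This block leaves batch differences in the groups. Over all comparisons, 98 of 1029 fold changes under the alternatives and 64 of 1980 with single libraries left out turned sign with neither value called.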
